A study of Mus musculus with 6 samples.

Results

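The small leucine-rich proteoglycans are secreted proteins of the cartilage, tendon and bone matrix, each with a curved domain of leucine-rich repeats that binds collagen fibrils. Most carry glycosaminoglycan chains, chondroitin or dermatan sulfate in class I and keratan sulfate in several members of class II, and through core protein and chains they set the spacing and thickness of fibrils and hold growth factors of the TGF-β family in the matrix. The growth plate, whose chondrocytes build a matrix of collagen II fibrils and aggrecan, contains several of them. The members followed here were the 10 genes Dcn, Bgn, Aspn, Fmod, Lum, Prelp, Omd, Epyc, Ogn and Chad, chosen by symbol from the 15803 genes of the expression table, and each symbol had 1 row.

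RNA was taken from the growth plate cartilage of mouse embryos at the late embryonic stage E18.5, in 6 libraries. Embryos of the genotype Hnrnpk fl/fl without Cre gave the 3 WT-labelled libraries and Col2a1-Cre;Hnrnpk fl/fl embryos gave the 3 labelled CKO, so that all carried the loxP-flanked Hnrnpk allele. Col2a1-Cre acts in cells that have expressed collagen II, chiefly chondrocytes, whereas the labels name growth plate chondrocytes and the study describes RNA from the tissue. Hnrnpk encodes an RNA-binding protein with a preference for C-rich sequence. The values are CPM, each gene's reads rescaled so that all listed genes sum to 1000000 in a library.

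Hnrnpk itself had 842, 955 and 944 CPM in WT 1 to 3, compared with 759, 949.9 and 780.0 CPM in CKO 1 to 3. The groups overlapped (log2 fold change of -0.14, SE 0.15, limma adjusted p = 0.622), and a count over the whole gene includes the exons outside the floxed part, so the table does not check the labels, and the libraries are named by label throughout. Depth was low, with 1183743 to 1379674 reads in the WT-labelled and 1153871 to 1454094 in the CKO-labelled libraries, and 3 reads were worth 2.06 to 2.60 CPM. CKO 1 and CKO 3 were closer to each other than any other pair of libraries with the same label. The mean chi-square per gene between them was 1.29 over 7382 genes, where sampling noise alone gives 1 (p = 1.40e-59), against 2.06 between WT 1 and WT 2 and 8.65 to 14.2 in the other pairs within a group. Over the 10 members alone, CKO 1 and CKO 3 agreed within sampling noise (chi-square of 4.20 on 10 degrees of freedom, p = 0.938). Their difference over all genes exceeded the sampling noise, but that alone does not show that they came from separate embryos or pools. The labels leave this unstated, and CKO 1 and CKO 3 were counted as 2 samples. By the mean chi-square per gene, CKO 2 stood apart within its group (14.2 and 13.1 from CKO 1 and 3). Results that rest on CKO 2 are given with and without it. WT 3 also stood apart within its group (9.43 and 8.65 from WT 1 and 2), and fits without it are given for several members. The 4 Y-linked genes checked summed to 0.725 CPM in WT 1 and to 0 CPM in CKO 2, against 91.5 to 144 CPM in the other libraries, and the part of this split in the results below was not tested.

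The promoters of Fmod and Omd are shown because these genes were lower in the CKO-labelled libraries, and that of Aspn because it lies next to Omd. Each is the 250 bases before the RefSeq start of the gene on GRCm38.p6, written 5′ to 3′, and these starts coincide with an annotated transcript start. Capitals mark matches, on either strand, to TATAAA (the TATA box), AACAAT (a core bound by SOX factors such as Sox9) or CCCTCC (the C-rich CT element, a type of sequence that hnRNP K is known to bind).
Fmod (chr1:134037004-134037253, + strand): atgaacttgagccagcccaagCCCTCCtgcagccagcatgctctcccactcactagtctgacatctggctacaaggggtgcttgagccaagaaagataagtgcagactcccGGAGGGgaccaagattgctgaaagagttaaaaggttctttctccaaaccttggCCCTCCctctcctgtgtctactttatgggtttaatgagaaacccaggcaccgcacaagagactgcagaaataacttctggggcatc
Omd (chr13:49582212-49582461, + strand): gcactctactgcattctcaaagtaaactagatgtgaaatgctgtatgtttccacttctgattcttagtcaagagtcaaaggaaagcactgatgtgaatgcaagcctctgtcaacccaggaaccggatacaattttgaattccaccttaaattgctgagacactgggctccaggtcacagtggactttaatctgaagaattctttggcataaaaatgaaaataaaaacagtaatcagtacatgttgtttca
Aspn (chr13:49544193-49544442, + strand): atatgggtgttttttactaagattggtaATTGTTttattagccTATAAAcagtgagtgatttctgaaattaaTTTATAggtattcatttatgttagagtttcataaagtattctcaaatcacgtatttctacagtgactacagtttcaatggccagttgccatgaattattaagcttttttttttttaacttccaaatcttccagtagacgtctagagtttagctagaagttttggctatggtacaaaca
The Fmod window held 3 CT elements and the Omd window none of the 3 motifs. The Aspn window held 1 SOX core and 2 TATAAA matches, at -207 and -178 from the start. RefSeq windows were matched for 8 members, and Dcn and Lum were not matched. CT elements were found in the windows of 4 of these 8 genes (Bgn, Fmod, Prelp and Chad), whereas 35.2% of all 32851 windows of this length held 1 or more. SOX cores were found in 3 (Prelp, Epyc and Aspn), against 9.42% of all windows. TATAAA matches were found in 3 (Aspn, Ogn and Chad), against 12.4% of all windows. Epyc had more than 1 window, each with SOX cores. Members were counted as genes and the shares are over windows, so they are not like for like. In the Ogn window the TATAAA matches on the 2 strands overlap, at -229 and -227 from the start, whereas the match of Chad is at -28. A match describes letters, and no binding was measured.

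All 10 members were tested, with 4 to 2246 reads per member and library. With limma on log2(CPM + 1), 3 members were lower in the CKO-labelled libraries at an adjusted p under 0.05 (Dcn, Fmod and Omd) and none was higher. This is 30% of the members, beside 5.78% of the 12155 genes tested that were called in either direction, 2.6% called lower and 3.18% called higher. By the criterion of the study's methods, a log2 fold change below -1 with an unadjusted p under 0.05, 4 members were lower (Dcn, Fmod, Omd and Aspn), beside 5.1% of all genes, and none was higher. Without CKO 2 the members past this criterion were Dcn, Omd and Chad, with Prelp higher, and without WT 3 they were Dcn, Fmod and Omd. Prelp also passed it on the higher side without WT 1 or WT 2 and with a pseudocount of 0.1. The libraries of the 2 labels did not overlap for 6 members, 5 of them lower and Prelp higher, beside 27.7% of all genes in either direction. Without WT 1 or WT 2 only Dcn remained called, without WT 3 Dcn and Omd did, and without CKO 2 the calls were 5, with Prelp higher and Chad lower. The median log2 fold change of the members was -0.78, and that of all genes tested was 0.01. For a single gene the exact permutation test of 3 against 3 cannot go below p = 0.1, which it gave for each of these 6 members.

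**Figure D1:**
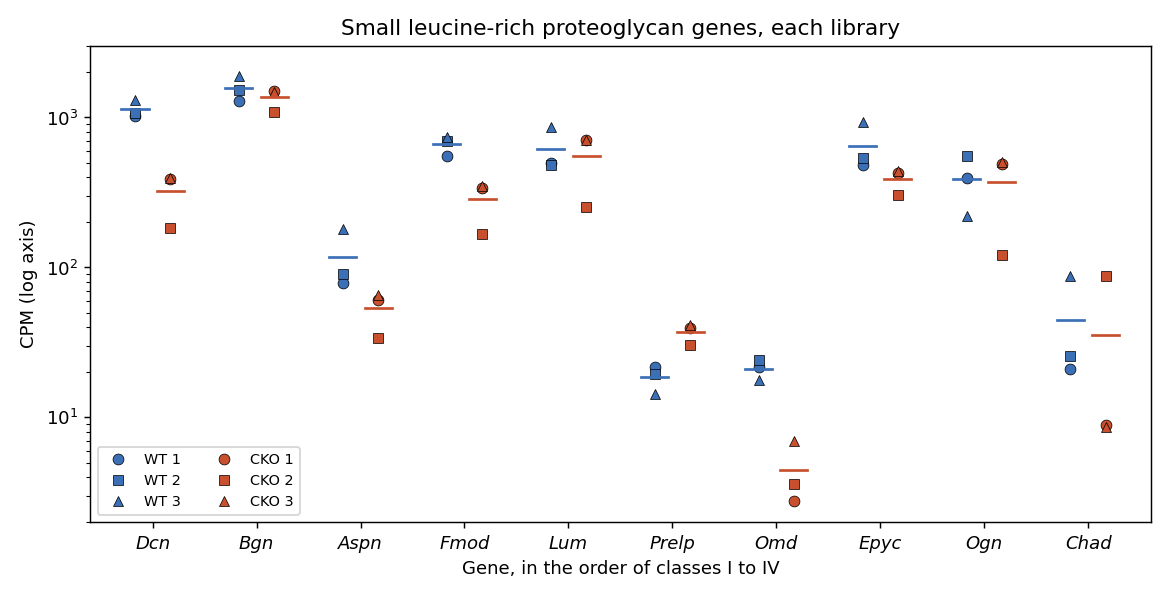
CPM of the 10 genes in each library on a log axis, blue for WT and orange for CKO, with circles, squares and triangles for replicates 1, 2 and 3 and a line at the mean. Dcn, Aspn, Fmod, Omd and Epyc lie lower in all CKO libraries than in any WT library, Prelp lies higher, and CKO 2 (square) lies apart from CKO 1 and 3 for Lum, Ogn and Chad.

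Among the class I members, Dcn (ENSMUSG00000019929, chr10:97479609-97518143, GRCm38, + strand) encodes decorin, which carries 1 chondroitin or dermatan sulfate chain, coats collagen fibrils and binds TGF-β. Dcn had 1025, 1078 and 1312 CPM in WT 1 to 3, compared with 389, 183 and 396 CPM in CKO 1 to 3. Every CKO-labelled library was below every WT-labelled one, and CKO 2 was the lowest. The means of 1138 ± 153 and 323 ± 121 CPM (SD, n = 3 each) differ 3.53-fold, and the log2 fold change was -1.89 (SE 0.27, limma adjusted p = 0.0043). Dcn passed the adjusted threshold in all 13 alternative fits, including that without CKO 2, where its log2 fold change was -1.52. As these are bulk libraries, fewer cells that express a gene and less RNA per cell cannot be told apart, here or below.

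Bgn (ENSMUSG00000031375, chrX:73483602-73495933, + strand) encodes biglycan, the closest relative of decorin, with a pair of chondroitin or dermatan sulfate chains. It had 1297, 1524 and 1897 CPM in WT 1 to 3, compared with 1506, 1086 and 1489.8 CPM in CKO 1 to 3. The 2 ranges overlapped, and CKO 2 was the lowest of all libraries. The log2 fold change of -0.21 (limma adjusted p = 0.575) had a 95% confidence interval from -0.62 to 0.21, which leaves out a decrease of the size seen for Dcn.

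Aspn (ENSMUSG00000021388, chr13:49544443-49567565, + strand) encodes asporin, a class I member without a glycosaminoglycan attachment site that binds collagen and TGF-β. It had 79.0, 90.8 and 182 CPM in WT 1 to 3, compared with 60.5, 33.9 and 65.9 CPM in CKO 1 to 3, without overlap, and WT 3 stood far above WT 1 and WT 2. Its log2 fold change of -1.07 (SE 0.34) met the criterion of the study (unadjusted p under 0.05) and not the adjusted threshold (limma adjusted p = 0.0936). At -0.78 without CKO 2 and -0.71 without WT 3, it no longer met that criterion. DESeq2 on the recovered reads was the only one of 13 alternative fits to call it (adjusted p = 0.0298).

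Class II began with Fmod (ENSMUSG00000041559, chr1:134037254-134048277, + strand), which encodes fibromodulin, a keratan sulfate proteoglycan with sulfated tyrosines that binds collagen I and II fibrils. Fmod had 557, 694 and 743 CPM in WT 1 to 3, compared with 339.7, 167 and 352 CPM in CKO 1 to 3. All CKO-labelled libraries were lower, again with CKO 2 at the bottom, and the means of 665 ± 96.0 and 286 ± 103 CPM (SD, n = 3) differ 2.32-fold. The log2 fold change was -1.28 (SE 0.26, limma adjusted p = 0.0222). The call was lost when any 1 of the WT-labelled libraries was left out, and held in the other 10 alternative fits, with a log2 fold change of -0.93 without CKO 2.

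Lum (ENSMUSG00000036446, chr10:97565128-97572703, + strand) encodes lumican, which competes with fibromodulin for a shared site on collagen. It had 499, 482 and 862 CPM in WT 1 to 3, compared with 706, 254 and 712 CPM in CKO 1 to 3. CKO 1 and 3 lay within the range of the WT-labelled libraries and CKO 2 below it. The log2 fold change of -0.23 (95% interval from -1.06 to 0.59, limma adjusted p = 0.767) turned to 0.26 without CKO 2 and to 0.04 without WT 3, so Lum has no direction in these libraries.

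Prelp (ENSMUSG00000041577, chr1:133910304-133921414, - strand) encodes a member with a basic, arginine- and proline-rich end that binds both collagen and heparan sulfate. It had 21.7, 19.5 and 14.4 CPM in WT 1 to 3, compared with 39.2, 30.3 and 41.6 CPM in CKO 1 to 3. Prelp was the only member that stood higher in every CKO-labelled library, with a log2 fold change of 0.97 (SE 0.26) that missed the adjusted threshold (limma adjusted p = 0.0534). Without CKO 2 it was 1.10 with an adjusted p of 0.0221, and none of the other 12 alternative fits called it. The annotation places the antisense gene Gm15851 on the other strand of Prelp with near-identical sequence. The kit was stranded but the strand setting of the read counter is not given in the sources used here, so reads of this pair may not be separated.

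Omd (ENSMUSG00000048368, chr13:49582462-49592822, + strand) encodes osteomodulin, also called osteoadherin, an acidic keratan sulfate proteoglycan best known from bone, where it binds mineral and cells. Omd had 30, 32 and 21 reads in WT 1 to 3 and 4, 5 and 8 reads in CKO 1 to 3, or 21.7, 24.0 and 17.7 against 2.75, 3.61 and 6.93 CPM. The groups did not overlap, the means differ 4.78-fold, and the log2 fold change was -2.09 (SE 0.37, limma adjusted p = 0.0107), the largest among the members. With so few reads the size of the decrease is imprecise (95% interval from -2.91 to -1.28). The call was lost without WT 1 or WT 2 and held in the other 11 alternative fits. Cenpp overlaps Omd on the other strand, and their reads may not be separated.

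Of class III, Epyc (ENSMUSG00000019936, chr10:97644068-97682454, + strand) encodes epiphycan, a dermatan sulfate proteoglycan typical of epiphyseal cartilage. Epyc had 481, 535 and 928 CPM in WT 1 to 3, compared with 424, 303 and 443 CPM in CKO 1 to 3. The groups did not overlap, though CKO 3 lay close below WT 1. The log2 fold change of -0.69 (SE 0.25) missed the adjusted threshold (limma adjusted p = 0.142) here and in all 13 alternatives. It was -0.52 without CKO 2 and -0.40 without WT 3. A long noncoding RNA of near-identical sequence, Gm10754, overlaps Epyc on the other strand.

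Ogn (ENSMUSG00000021390, chr13:49608046-49624501, + strand) encodes osteoglycin, also called mimecan, found in bone, tendon and many connective tissues. It had 396, 550.1 and 221 CPM in WT 1 to 3, compared with 487, 122 and 504 CPM in CKO 1 to 3. WT 3 and CKO 2 were the lowest, and the range within either label was wider than the difference of the means. The log2 fold change of -0.23 (95% interval from -1.33 to 0.88, limma adjusted p = 0.836) became 0.44 without CKO 2 and 0.07 without WT 2.

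Chad (ENSMUSG00000039084, chr11:94565047-94569127, + strand) encodes chondroadherin, a class IV protein of cartilage that carries no glycosaminoglycan chain and binds integrins on chondrocytes. It had 21.02, 25.5 and 87.9 CPM in WT 1 to 3, compared with 8.94, 88.1 and 8.67 CPM in CKO 1 to 3. WT 3 and CKO 2, the libraries with the least Ogn, had the most Chad. The log2 fold change of -0.87 carried an SE of 0.80 (limma adjusted p = 0.582). Without CKO 2 it was -1.93 and called (limma adjusted p = 0.0343), and without WT 3 it was -0.24 and not called. Acsf2 overlaps Chad on the other strand, and their reads may not be separated either.

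**Figure D2:**
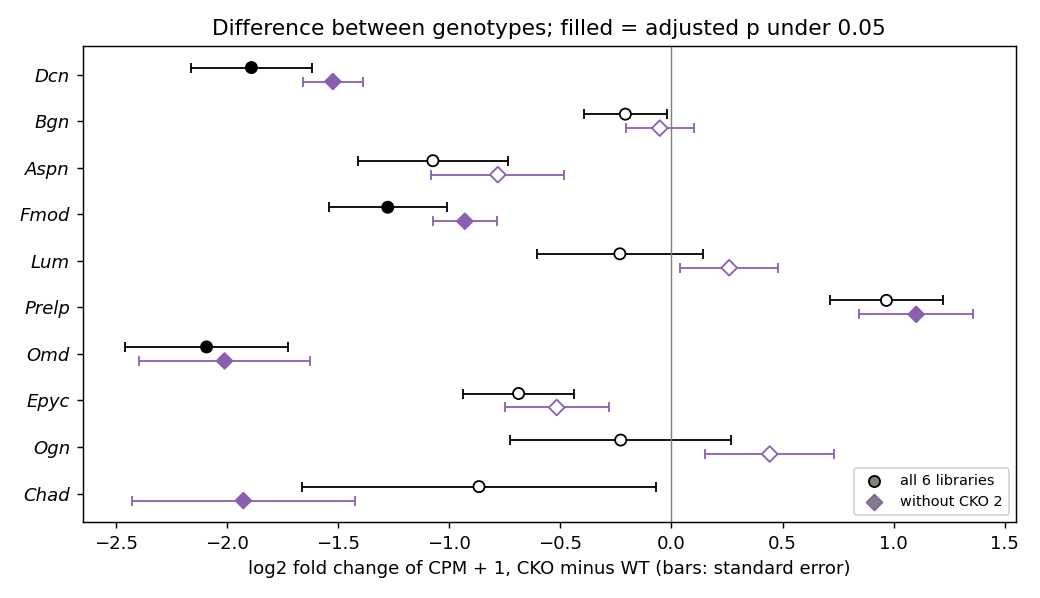
Log2 fold change of CPM + 1, CKO minus WT, with its standard error, from all 6 libraries (black circles) and from 5 libraries without CKO 2 (purple diamonds). Filled symbols have a limma adjusted p under 0.05. Dcn, Fmod and Omd are called in both fits, Prelp and Chad only without CKO 2, and Lum and Ogn change sign.

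CKO 2 differed from CKO 1 and CKO 3 in other gene groups as well. The summed level of 9 osteoblast markers was 376 CPM in CKO 2, against 1316 and 1408 CPM in CKO 1 and 3 and 488 to 709.6 CPM in the WT-labelled libraries. That of 12 tendon or fibroblast markers was 891 CPM in CKO 2, 1536 and 1489 CPM in CKO 1 and 3, and 1809.9 to 3188 CPM in the WT-labelled libraries, with the highest sum in WT 3, where Dcn, Bgn, Aspn, Fmod, Lum and Epyc were also highest. Col3a1 alone made up 757 of the 891 CPM in CKO 2, where other markers of that list, Postn (30.3 CPM), Thbs4 (7.94 CPM) and Cd34 (7.22 CPM), were higher than in CKO 1 and 3. In the osteoblast sum, CKO 2 was low mainly in Ibsp and Bglap2. Ibsp had 83.0 CPM in CKO 2 against 708 and 808 CPM in CKO 1 and 3. Bglap2 had 35.4 CPM against 290 and 257 CPM, whereas Col1a1 had 240 CPM against 245 and 269 CPM. CKO 2 was thus low in both sums, though not in every marker. It was the lowest CKO-labelled library for 8 of the 10 members, all but Omd and Chad. The part of the marker differences in these results was not tested. Without CKO 2, the CKO label is represented only by the pair of libraries that agreed within sampling noise over the members, so the spread in that fit is small. With CKO 1 and CKO 3 averaged into 1 sample, an alternative chosen after the data were seen, Dcn, Fmod and Omd remained past the threshold (limma adjusted p = 0.0145, 0.0407 and 0.0224).

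Levels of different genes were compared as CPM per kb of the principal transcript. In the WT-labelled libraries Bgn (650.3 ± 125 CPM per kb, SD, n = 3) and Dcn (647 ± 86.9) led, followed by Epyc (255), Lum (251), Fmod (213), Ogn (152), Aspn (50.3), Chad (26.7), Omd (9.41) and Prelp (5.13). Among neighbours in this order, the ranges over libraries were separate for Dcn and Epyc, for Ogn and Aspn, for Chad and Omd and for Omd and Prelp, and overlapped for the other pairs. The place of Dcn depends on the length used, since with the union of all annotated exons it fell behind Epyc, Lum and Fmod at 195 CPM per kb. In the CKO-labelled libraries the order of the means began with Bgn (562), Lum (228) and Dcn (184). With the union of exons Lum (228) came before Bgn (223) there, and Lum (251) was above Dcn in the WT-labelled libraries too. By either length Prelp (10.2) stood above Omd (1.97), the reverse of their order in the WT-labelled libraries.

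Summed over the 10 genes, the family made up 1908, 2158 and 2715 CPM per kb in WT 1 to 3 and 1642, 954 and 1663 in CKO 1 to 3, which did not overlap. Within this pool the mean share of Dcn was 28.8% in the WT-labelled and 12.6% in the CKO-labelled libraries, and that of Bgn was 28.7% and 40.7%. The shares rest on the principal transcript lengths, and the near-equal shares of Dcn and Bgn in the WT-labelled libraries hold only with these, since with the union of exons Dcn was at 195 and Bgn at 258 CPM per kb. Bgn held 37.0 to 47.0% of the pool in the CKO-labelled ones against 10.9 to 13.5% for Dcn. Shares of Fmod (9.48% and 6.35%), Aspn (2.15% and 1.603%) and Omd (0.431% and 0.143%) were lower and that of Prelp (0.237% and 0.744%) higher in all CKO-labelled libraries. Shares of Epyc, Lum, Ogn and Chad overlapped. Since shares sum to a whole, a lower share of Dcn raises the others by construction.

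**Figure D3:**
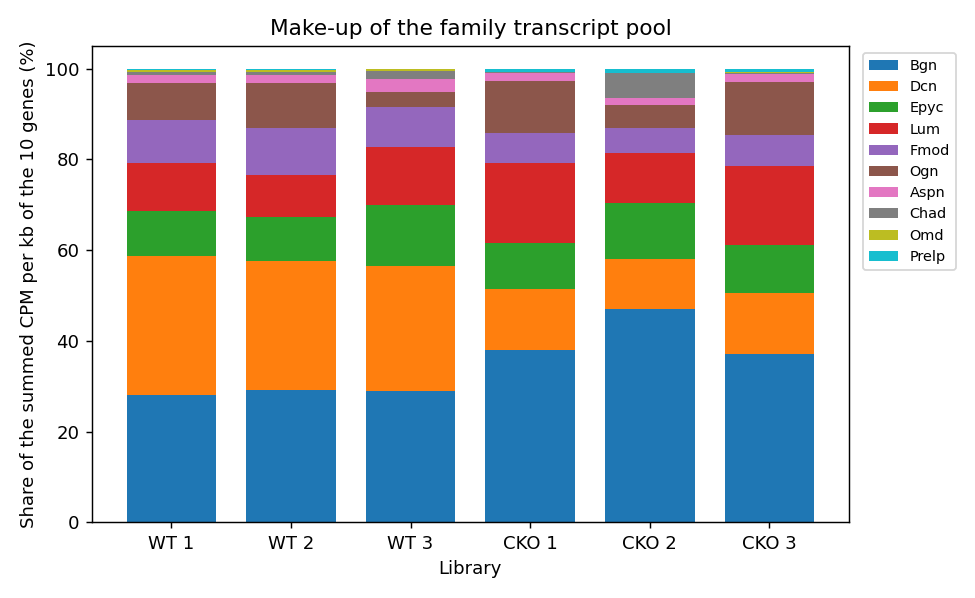
Share of each gene in the summed CPM per kb of the 10 genes, 1 bar per library, in the order of mean level in WT. The Dcn segment (orange) is 27.5 to 30.6% in the WT libraries and 10.9 to 13.5% in the CKO libraries, and Chad (grey) takes 5.49% in CKO 2.

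Ratios within a library do not depend on its scaling. The Dcn to Bgn ratio of CPM was 0.790, 0.707 and 0.691 in WT 1 to 3 and 0.258, 0.168 and 0.266 in CKO 1 to 3. Its geometric means differ 3.22-fold, and the fold differences of the other ratios are also those of geometric means. The Fmod to Lum ratio, of the 2 members that compete for collagen, was 1.12, 1.44 and 0.862 in WT 1 to 3 and 0.481, 0.659 and 0.495 in CKO 1 to 3, a 2.07-fold difference. Neither ratio in any CKO-labelled library reached the lowest value of the WT-labelled ones. The Prelp to Fmod ratio was 4.88-fold higher in the CKO-labelled libraries (arithmetic means of 0.0288 ± 0.0099 in WT against 0.138 ± 0.037 in CKO, SD, n = 3). The Omd to Ogn ratio was 4.37-fold and the Aspn to Bgn ratio 1.84-fold lower. None of the 5 ratios overlapped between labels (two-sided exact permutation p = 0.1 each, the smallest the design allows). For Prelp to Fmod this was fixed in advance, since Prelp was higher and Fmod lower in every CKO-labelled library. Each other ratio sets a member without overlap over a member with overlap. The ratios therefore restate the member values and are no separate support, and other pairs were not examined.

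**Figure D4:**
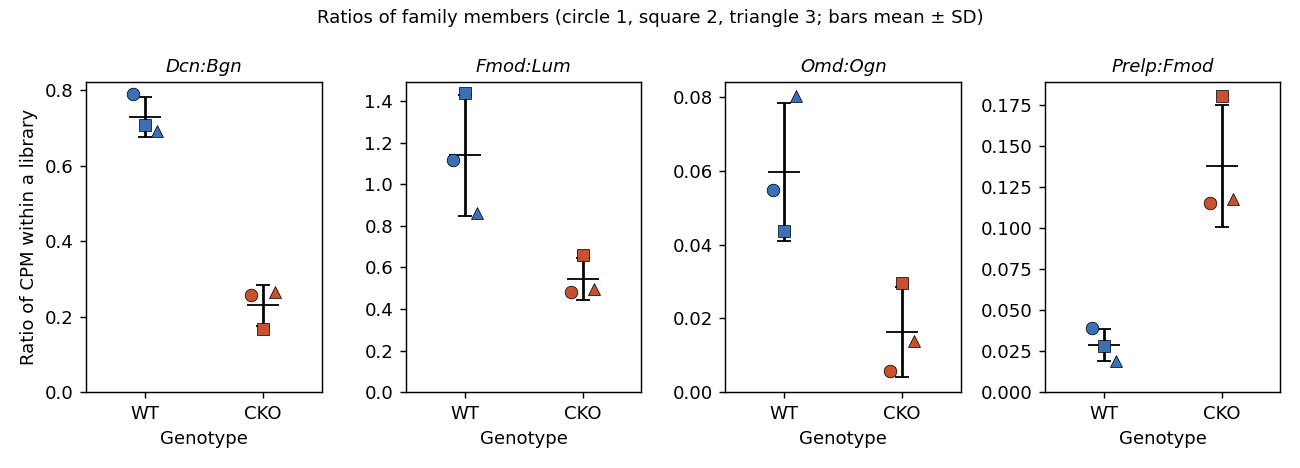
Ratio of CPM of 2 members within each library, by label, with the mean ± SD (n = 3). Dcn:Bgn, Fmod:Lum and Omd:Ogn lie lower and Prelp:Fmod higher in every CKO library than in any WT library.

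Of the 10 members, 8 lie in 3 genomic clusters, and the log2 fold changes varied in size or sign within each. Such differences were not tested apart from the member values, which the ratios of Omd to Ogn and of Prelp to Fmod above restate. On chromosome 10, in the order Dcn, Lum, Kera and Epyc over 203 kb, Dcn was called lower, Lum had no direction, and Kera, the cornea member keratocan, had only 1 or 2 reads per library. The nearest tested genes outside this cluster, Btg1 (-0.55, at a distance of 857 kb) and Atp2b1 (-0.44, at 1232 kb), were not called. On chromosome 13, in the order Ecm2, Aspn, Omd and Ogn over 119.7 kb, the log2 fold changes were -1.17, -1.07, -2.09 and -0.23, and only that of Omd passed the adjusted threshold. Cenpp, a centromere gene that spans this cluster on the other strand, had a log2 fold change of 0.15, and the nearest genes on either side, Ippk (-0.02) and Nol8 (0.83), were not called. Cenpp had 7 to 28 reads per library, which may not be separated from those of the family genes it overlaps.

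On chromosome 1, Optc, Prelp and Fmod lie within 151 kb. Optc had 1 or 2 reads in each WT-labelled library, and Prelp and Fmod had log2 fold changes of opposite sign, 0.97 and -1.28. Btg2, an antiproliferative gene 26.9 kb beyond Fmod, was called higher (log2 fold change of 1.89, limma adjusted p = 0.00263), at 10.5 to 13.8 CPM in the WT-labelled and 45.9 to 55.7 CPM in the CKO-labelled libraries. Atp2b4, on the other side, was not called (-0.77).

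**Figure D5:**
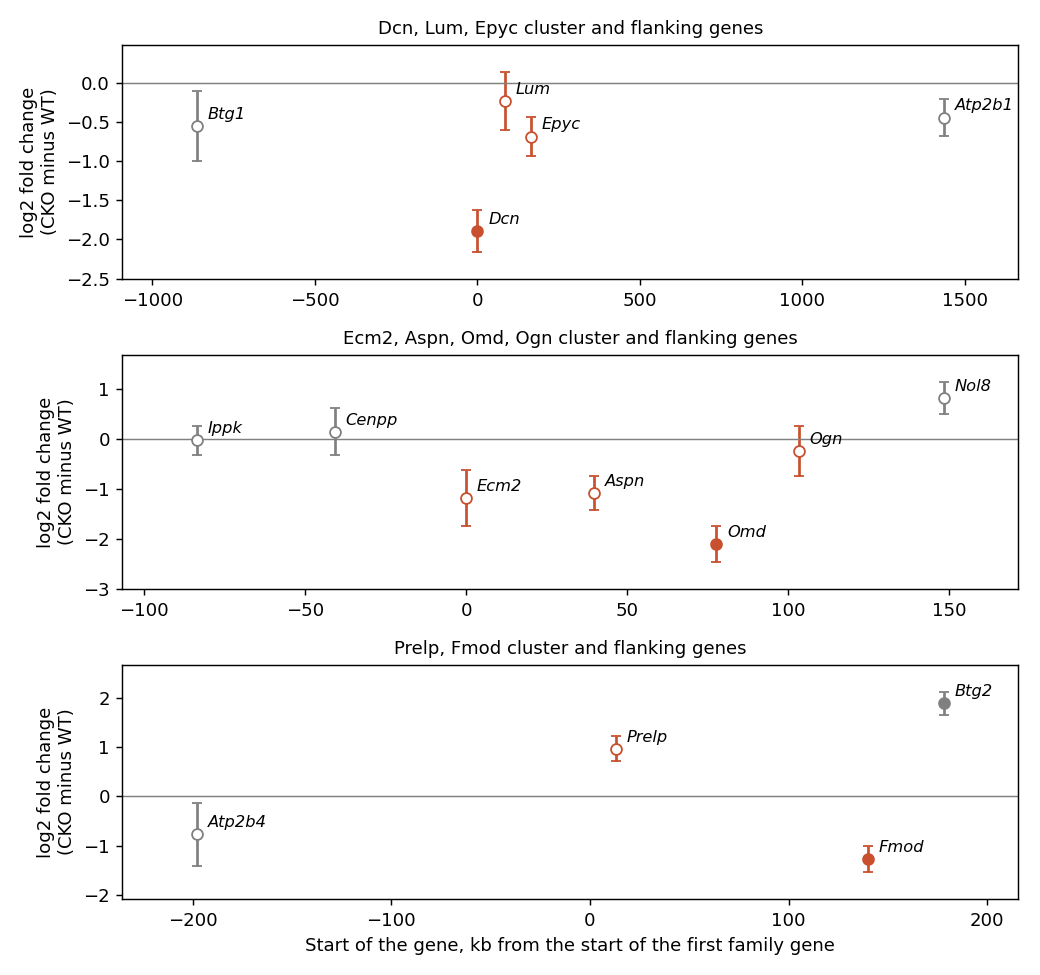
Log2 fold change, CKO minus WT, with its standard error (y axis) against the start of each gene in kb from the first family gene (x axis), for the 3 clusters. Family genes are orange and flanking genes grey, and filled symbols have a limma adjusted p under 0.05. Dcn, Omd, Fmod and the flanking gene Btg2 are filled.

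The 8 further genes of the family were expressed at low level or did not pass the threshold. Kera, Optc and Nyx, which are known from the eye, and Ecm2 had at most 5 reads in any library. Tsku, a secreted inhibitor of several signaling pathways, had a log2 fold change of 0.16, Podn, podocan, of -0.32, and Podnl1 of -0.95. Chadl, a relative of Chad in cartilage, had 10, 7 and 12 reads in WT 1 to 3 and 2, 4 and 5 reads in CKO 1 to 3, without overlap. Its log2 fold change of -1.18 met the criterion of the study and missed the adjusted threshold (limma adjusted p = 0.16). L3mbtl2 overlaps Chadl on the other strand and shares near-identical sequence, so their reads may not be separated. None of the 6 tested was called.

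The enzymes that build the chains were then examined, from lists set by hand for this family. None of the 7 genes for the linker between core protein and chain, none of the 13 tested for chondroitin and dermatan sulfate, none of the 6 tested for keratan sulfate and neither of the 2 tyrosine sulfotransferases was called by limma. Their median log2 fold changes were -0.48, -0.49, -0.13 and -0.97, beside 0.01 over all genes. The summed level of the linker genes overlapped between labels (158 to 267 against 125 to 167 CPM), whereas that of the chondroitin and dermatan sulfate genes did not (425 to 574 against 292 to 376 CPM). A large part of the latter sum was Csgalnact1 (192 to 251 against 107 to 158 CPM), and its separation rests on this gene. Of the 13 tested, 4 had positive log2 fold changes. Of the 6 tested for keratan sulfate, 2 had positive ones. Chst5, of the keratan sulfate list, was lower without overlap and met the criterion of the study (-1.60, limma adjusted p = 0.114). It had 5, 6 and 17 reads in WT 1 to 3 and 2, 3 and 1 reads in CKO 1 to 3.

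The collagens that the family binds or accompanies in fibrils were also lower in part. Of 14 genes, 6 were called lower and none higher, with a median log2 fold change of -0.93, and 3 were called lower without WT 2, without CKO 3 or with CKO 1 and 3 averaged. Among the 6 were Col9a1 (-2.50), which decorates collagen II fibrils, Col11a2 (-2.90) and Col11a1 (-1.27), which form their core, and Col2a1 (-1.03), their main component. The call of Col2a1 was lost without WT 2, CKO 1 or CKO 3 and with CKO 1 and 3 averaged (limma adjusted p of 0.0624 to 0.0694). Of 11 tested genes for proteases that cleave these proteins or procollagen, and for their enhancers, only Pcolce2, an enhancer of procollagen C-proteinase, was called lower (-1.47), and this call was lost without WT 1 (limma adjusted p = 0.0596). Of 18 tested ligands and receptors that members bind, only Egfr, a receptor of decorin, was called, and it was higher (1.77), at 8.59 ± 2.25 against 33.6 ± 15.3 CPM (SD, n = 3). The call of Egfr was lost in 5 of 13 alternative fits, those without WT 1, WT 2, CKO 1 or CKO 3 and with CKO 1 and 3 averaged (limma adjusted p of 0.0988 to 0.117).

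Of 11 chondrocyte markers 7 were called lower and none higher, among them Matn1 (-3.76), Cnmd (-2.68) and Snorc (-2.11). The summed level of the 11 was 23956 to 30067 CPM in the WT-labelled and 5741 to 6240.5 CPM in the CKO-labelled libraries. Cnmd (9498 to 9818 CPM) and Matn1 (6283 to 7830 CPM) made up most of the sum in the WT-labelled libraries. The 4 not called, Sox9 (-0.83), Sox6 (-0.36), Hapln1 (-0.20) and Sox5 (0.50), overlapped between labels. The sum of 7 hypertrophic markers was 1469.9 to 4594 against 12392 to 15211 CPM, of which Spp1, osteopontin, was the only one called higher (2.84). Spp1 carried most of this sum, with 1037 to 3769 CPM in the WT-labelled and 11114 to 12045 CPM in the CKO-labelled libraries. Mmp13 (1.81), also on the protease list, had 2155, 377 and 2301 CPM in CKO 1 to 3 against 257 to 650 CPM in WT. Ibsp (1.78), also an osteoblast marker, had 708, 83.0 and 808 CPM against 82.5 to 129 CPM. Both met the criterion of the study and missed the adjusted threshold (limma adjusted p = 0.118 and 0.166). For both, CKO 2 lay within the range of the WT-labelled libraries. Col10a1, the defining collagen of hypertrophic chondrocytes, had a log2 fold change of 0.33 with overlap, and Runx2 had 0 to 5 reads per library. Of the tendon or fibroblast markers, cells that also express Dcn, Fmod, Lum and Aspn, none of 10 tested was called, but their sum did not overlap (1809.9 to 3188 against 891 to 1536 CPM). Most of the sum was Col3a1 (1689.5 to 2915 against 757 to 1391 CPM). Dpt (-1.23, 14.5 to 25.3 against 3.61 to 11.3 CPM) and Tnmd (-0.83, 34.8 to 146 against 29.6 to 33.7 CPM) were also lower without overlap. Dpt met the criterion of the study. Of the 10, 6 had negative log2 fold changes and 4 positive ones, Prrx1, Cd34, Thbs4 and Twist1. Of these 4, Prrx1 and Twist1 were higher without overlap. None of the 7 tested osteoblast markers was called (488 to 709.6 against 376 to 1408 CPM).

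Markers of other cells were lower in abundance. None of the 6 tested muscle markers (49.5 to 202 against 98.9 to 113 CPM) and neither of the 2 erythroid markers (0.725 to 5.25 against 2.06 to 28.9 CPM) was called. Of the macrophage or osteoclast list 1 of 6, Cd68, was higher (2.74), with sums of 151 to 382 against 284 to 309 CPM, and of the epidermis list 1 of 2, Sbsn, was higher (3.78), with sums of 21.1 to 42.8 against 62.1 to 119 CPM. Ptprc, the leukocyte marker, had 1 read in CKO 2 and 0 in every other library of either label. The defining epidermal keratins Krt5 and Krt14 had no row, and the endothelial list summed to at most 3.38 CPM. The part of these differences in the results for the members was not tested.

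The members also differed in which other genes they followed across the 6 libraries. As a description, Pearson's r of log2(CPM + 1) over 6 libraries that share labels was 0.986 between Dcn and Fmod and 0.993 between Aspn and Epyc, and -0.857 between Ogn and Chad. Among 6827 genes whose mean reached 10 CPM, the most like Dcn were Ccpg1os, Serpinf1 and Il11ra1 (r of 0.996 to 0.999). The most like Fmod were Elovl5, Atp6v0a4 and Psap, and the most like Aspn were Maged1, Maged2 and Wdr45b. Ogn was followed by mt-Co2, Ctso and Lysmd4 and Chad by Rae1, Srrt and Tipin. For every member the 3 most alike genes had an r of at least 0.98, so values this high were common over 6 libraries.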

How the data were processed

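The 6 libraries, 3 labelled WT and 3 labelled CKO, were matched to columns of 1 deposited table by label. The authors deposited CPM per gene, with no strand setting or genome build in the sources used here. The submitters' processing notes name cutadapt (version 2.5), HISAT2 and featureCounts (version 1.6.3). The columns of each library sum to 1000000, and 100% of the values are whole multiples of 1 read (tolerance 0.001 reads), so reads were recovered. Depth was 1153871 to 1454094 reads per library, and counting floors cover counting error only.

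Genes whose mean reached 1 CPM (12155) were fitted with limma (version 3.58.1, R 4.3.3) on log2(CPM + 1), empirical Bayes moderation with trend, and p-values adjusted by Benjamini-Hochberg. Fold changes on this scale understate those of low genes. Calls have an adjusted p under 0.05. The count tests edgeR (version 4.0.16), which calls 737 of 7704 genes, and DESeq2 (version 1.42.0) were run on recovered reads as alternatives, beside a pseudocount of 0.1, no filter, TMM scaling, a replicate block, each library left out and, added after the data were seen, CKO 1 and 3 averaged. The fits were run on simulated counts of independent libraries that all had the same scatter. Those counts held no alike pair and no outlying library, so they cannot show how the fits behave with such libraries. The labels do not say that libraries came from separate embryos, so p-values measure only the spread between these libraries.

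Positions and lengths are from GENCODE M21 on GRCm38, and near-identical copies share at least 90% over 300 bp. Promoters are from RefSeq. The members and gene lists were chosen with earlier results of these data known. Named are the members, the 8 further family genes, genes nearest to their clusters, up to 4 called genes per list by p-value, and the 3 most alike genes of a member. Gm15851, Gm10754, Acsf2, Krt5, Krt14, Ptprc, Col10a1, Col3a1, Prrx1, Cd34, Thbs4, Twist1 and Postn were added after values were seen. Hapln1, Sox5, Sox6, Sox9, Mmp13, Ibsp, Runx2, Csgalnact1, L3mbtl2, Dpt, Tnmd, Bglap2, Col1a1 and Chst5 were also added then.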

Additional observations from a re-analysis of the deposited data

How the results depend on the processing

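Of 130 log2 fold changes of members under the 13 alternatives, 118 kept their direction and side of the threshold, 4 changed sign, 3 passed the threshold anew and 5 no longer passed it. The cause was not tested. The 703 calls over all genes became 385 with the replicate block, 259 with CKO 1 and CKO 3 averaged (all 259 among the 703) and 212 to 1298 with 1 library left out, the lowest without WT 2 and the highest without CKO 2. With 1 library left out, members called numbered 1 to 5, those called lower 1 to 4, and collagen genes called lower, 6 of 14 otherwise, 3 to 8; averaging gave 3. Log2 fold changes that changed sign when a library was left out spanned -0.48 to 0.26 for Lum, -0.59 to 0.44 for Ogn, -0.17 to 0.52 for Tsku, -0.28 to 0.50 for Cenpp and -0.208 to 0.0872 for Ippk, none of them called. No further alternative moved these counts by over 1.5 times.

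Libraries that share a replicate number did not deviate together (correlations of 0.073, -0.208 and -0.155 over 6827 genes), so the number is not treated as pairing them, and with the replicate block Dcn, Fmod and Omd were still called (3 members, limma adjusted p of 0.0074, 0.0345 and 0.0341). At this depth differences in Omd, Chadl and Prelp rest on 2 to 57 reads per library. Decreases of Kera, Optc, Nyx or Ecm2, with at most 5 reads per library, were not detectable.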
